A study of Homo sapiens with 9 samples.

Results

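The enzymes and carriers of fatty acid oxidation and ketone body formation were followed in HepG2, a long-established line of human hepatoma cells in which many hepatocyte functions persist. The set holds 37 genes, picked by name from the 57773 features of the deposited files, and 36 of the 37 had enough reads to be among the 12901 genes tested. The cells received tris(2-butoxyethyl) phosphate (TBOEP), a phosphate triester added to floor polishes and plastics as plasticiser and flame retardant, over 72 h. The 3 groups were TBOEP at 125 µM in 0.1% DMSO, TBOEP at 2.5 µM in 0.1% DMSO, and 0.1% DMSO without TBOEP, the solvent that all 9 cultures received. Each group had 3 libraries, from cells seeded, treated, extracted and sequenced separately, all of this 1 cell line; neither concentration was cytotoxic, per the labels.

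Long-chain fatty acids are bound in the cytosol, activated to acyl-CoA by acyl-CoA synthetases, and carried into mitochondria by the carnitine shuttle, where a repeating cycle of dehydrogenase, hydratase, second dehydrogenase and thiolase shortens them and passes electrons through the electron transfer flavoprotein to the respiratory chain. Peroxisomes run a related cycle on very long, branched and bile acid side chains and hand shortened products to mitochondria as carnitine esters. In the fasted liver much of the acetyl-CoA becomes ketone bodies, and many of these genes are known targets of the nuclear receptor PPARA.

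The libraries held 2480964 to 11885877 reads assigned to genes, and 3 reads were worth 0.252 CPM (gene reads scaled to a common library size) in the deepest and 1.21 CPM in the shallowest. The third library was the shallowest of each group. The first principal component of all tested genes took up 53.5% of the variance; on it the controls lay between -50.0 and -24.8 and the 125 µM libraries between 30.7 and 39.8. Libraries 1 and 2 at 2.5 µM lay at -9.28 and -9.08, and library 3 stood apart from them at 17.7. The part of nuclear gene reads that fell in introns, where unspliced transcripts leave reads, was 6.87% ± 0.628 in controls, 6.00% ± 1.52 at 2.5 µM and 5.23% ± 0.298 at 125 µM (SD, n = 3 each). Transcripts of the mitochondrial genome took 7.58% to 8.64% of gene reads in controls, 6.82% to 7.19% at 2.5 µM and 8.85% to 9.69% at 125 µM, with no overlap between groups. All 8 hepatocyte markers examined were tested; 5 were lower and 0 higher at 125 µM, and their summed level was 64871 to 88189 CPM in controls, 53175 to 65539 at 2.5 µM and 38269 to 45091 at 125 µM. Of the 4 adipocyte and 4 muscle markers 0 had enough reads to be tested, with ADIPOQ, FABP4 and LEP at 0 reads. Of 3 endothelial, 4 leukocyte and 4 fibroblast markers 1, 2 and 1 were tested, with KDR, PTPRC, CD3E and DCN at 0. Not all were scarce: LYZ of the leukocyte list reached 3075 CPM, PDGFRB of the fibroblast list 25.9 and VWF of the endothelial list 3.25. In each of these lists 1 tested marker was called lower at 125 µM and 0 higher, against 19.9% and 20.3% of all tested genes. The part of intron reads, of mitochondrial transcripts and of hepatocyte genes in the results was not tested, and in RNA from whole cultures fewer expressing cells and less RNA per cell cannot be told apart.

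At 125 µM, 15 of the 36 tested genes rose and 5 fell against control in edgeR's quasi-likelihood test with Benjamini-Hochberg adjustment over all 12901 genes, while 40.2% of all tested genes were called in either direction, 20.3% higher and 19.9% lower. The share of the set that rose, 41.7%, lay above the share of all genes, and the share that fell, 13.9%, below it. Values with ± in brackets beside an adjusted p are log2 fold changes with their SE from this fit, and ± after a level is the SD of 3 libraries. The median log2 fold change was 0.22 over the 36 genes and 0.0036 over all tested genes. The genes were chosen with earlier results of these data known, so these shares and medians describe the set and do not test it. The steepest rises among called genes were those of the pantetheinase VNN1, the carnitine shuttle enzyme CPT1A and the acyl-CoA synthetases ACSL3 and ACSL5. The steepest falls among them were those of the ketone body enzyme BDH1 and the peroxisomal carnitine transferase CROT.

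At 2.5 µM, 5 of the 36 rose and 3 fell, where 11% of all tested genes were called, 6.02% higher and 5.03% lower. The genes that rose were ETFB, ECI1, ACSL4, HADH and CD36, and those that fell were BDH1, ACSL1 and ACADVL. Between the concentrations, 7 were higher and 3 lower at 125 µM than at 2.5 µM, against 14.9% of all tested genes (7.48% higher and 7.44% lower). Each treated group was set against the same 3 control libraries, so the comparisons with control are not independent of each other. Without the third library of each group, edgeR called 0 of 13440 genes at 2.5 µM (2209 had an unadjusted p under 0.05), so that none of these 8 calls was left, while 9 of the set rose and 5 fell at 125 µM. At 2.5 µM, 1 rose and 1 fell without control library 1, 2 rose and 1 fell without 2.5 µM library 3, and 3 rose without control library 3; at 125 µM, 3 fell without control library 1; and between the concentrations 0 were lower without 2.5 µM library 1 or 125 µM library 2 and 1 without 125 µM library 1. With limma on deposited RPKM 13 rose and 2 fell at 125 µM (ACSL1, ACADSB and ETFDH were no longer called), 2 rose and 0 fell at 2.5 µM (BDH1 was no longer called), and 6 were higher and 0 lower between the concentrations (CPT1A, BDH1 and CROT were no longer called).

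**Figure D1:**
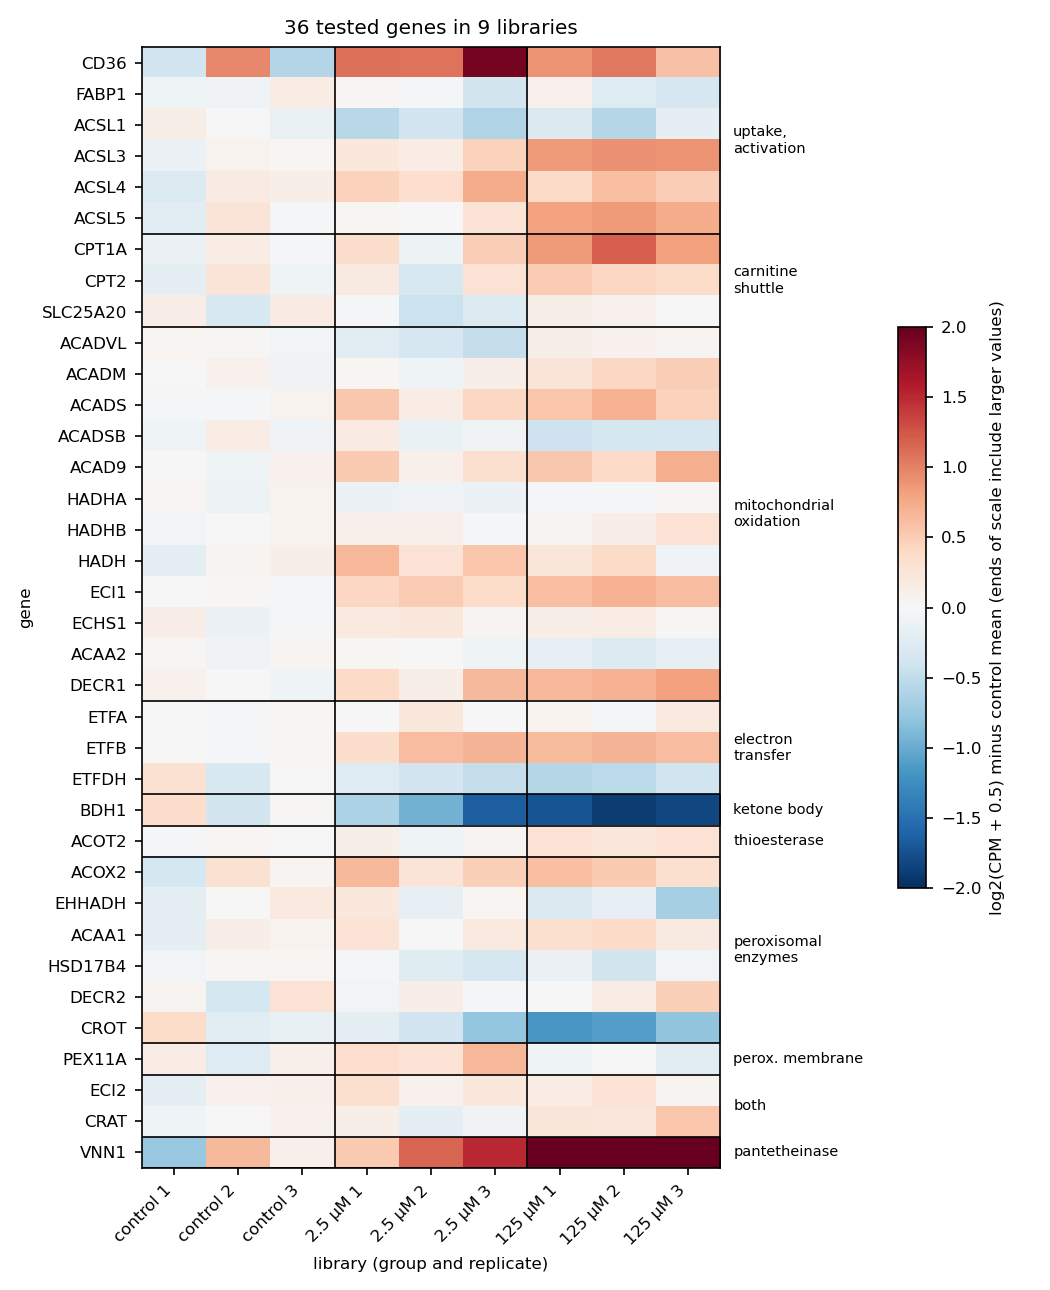
Log2(CPM + 0.5) of the 36 tested genes (rows, grouped by role) in the 9 libraries (columns), with each gene's control mean subtracted; red is above and blue below the controls. VNN1, CPT1A, ACSL3 and ACSL5 are red in all 3 libraries at 125 µM and BDH1 and CROT blue, and BDH1 is also blue in all 3 libraries at 2.5 µM.

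Of the 6 genes of fatty acid uptake and activation, ACSL3, ACSL4 and ACSL5 rose at 125 µM and ACSL1 fell. Acyl-CoA synthetases join a fatty acid to coenzyme A, the step that precedes both oxidation and esterification. ACSL3 (chromosome 2, 223725652 to 223809357 on build hg19), an endoplasmic reticulum and lipid droplet form, had 316, 362 and 355 CPM in controls, 399.6, 382 and 471 CPM at 2.5 µM and 618, 646 and 639 CPM at 125 µM. The 3 libraries at 125 µM lay far above all others, and the fold was 1.84 (log2 fold change 0.88 ± 0.094, adjusted p = 1.2e-05). The step from 2.5 to 125 µM also passed (0.61 ± 0.093, adjusted p = 0.000713), whereas 2.5 µM against control did not (0.27 ± 0.093, adjusted p = 0.0698). ACSL5 (chromosome 10, 114133776 to 114188138), a form found at mitochondria and the endoplasmic reticulum, had control values of 111, 155 and 129 CPM, against 134, 131 and 158 CPM at 2.5 µM and 228, 237 and 217 CPM at 125 µM. Its control and 2.5 µM libraries overlapped and its 125 µM libraries stood above both, at log2 fold changes of 0.80 ± 0.11 against control (adjusted p = 9.89e-05) and 0.70 ± 0.11 against 2.5 µM (adjusted p = 0.000999).

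ACSL4 and ACSL1 had already moved at the low concentration. ACSL4 (chromosome X, 108867473 to 108976632), which prefers arachidonic acid, had 375, 505 and 492 CPM with solvent alone, 625, 575 and 757 CPM with 2.5 µM and 594, 689 and 636 CPM with 125 µM TBOEP. Both treated groups stood above the controls and overlapped each other, with log2 fold changes of 0.51 ± 0.12 at 2.5 µM (adjusted p = 0.0197) and 0.49 ± 0.12 at 125 µM (adjusted p = 0.00599). Its call at 2.5 µM was lost without control library 1 (adjusted p = 0.105) and without 2.5 µM library 3 (adjusted p = 0.0829). ACSL1 (chromosome 4, 185676749 to 185747972), the main form of liver and fat, had 53.0, 49.3 and 44.6 CPM with solvent alone, 33.0, 37.6 and 31.9 CPM with 2.5 µM and 39.7, 32.7 and 42.9 CPM with 125 µM TBOEP. All 6 treated libraries lay below all 3 controls, and the log2 fold changes were -0.51 ± 0.12 (adjusted p = 0.0154) and -0.39 ± 0.12 (adjusted p = 0.0158). The ACSL1 call at 125 µM was lost without control library 1 (adjusted p = 0.0743) or 125 µM library 2 (adjusted p = 0.131), and that at 2.5 µM without control library 1 (adjusted p = 0.0915) or 2.5 µM library 3 (adjusted p = 0.0517).

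Per length, as deposited RPKM (exon reads scaled by exon length and library depth), the 4 synthetases could be set against each other. Exon length is a fixed deposited value per gene, whichever transcripts the cells used, which limits comparisons of RPKM between genes here and below. ACSL4 was the most abundant in controls, at 66.0 ± 12.2 RPKM, followed by ACSL3 at 44.3 ± 4.88, ACSL5 at 27.4 ± 5.70 and ACSL1 at 6.60 ± 0.482 (SD, n = 3). ACSL3 took 30.8% ± 1.45 of their summed RPKM in controls, 29.6% ± 0.267 at 2.5 µM and 36.2% ± 0.710 at 125 µM. ACSL4 took 45.6% ± 1.89, 51.7% ± 1.26 and 40.5% ± 1.34. The share of ACSL1 was 4.67% ± 0.989 in controls and 2.34% ± 0.373 at 125 µM. The library ranges of controls and 125 µM did not overlap for these 3 shares.

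The remaining genes of this role were CD36 and FABP1. CD36 (chromosome 7, 79998891 to 80308593), a scavenger receptor that takes up fatty acids, was the scarcest tested gene of the set, with 239 reads over all libraries and 1.26, 3.96 and 1.03 CPM in controls, 4.40, 4.37 and 8.08 CPM at 2.5 µM and 3.76, 4.23 and 2.94 CPM at 125 µM. It was called higher at 2.5 µM (1.32 ± 0.40, adjusted p = 0.0454) and not at 125 µM (0.94 ± 0.41, adjusted p = 0.0808). Control library 2 lay close to the treated libraries, and the call was lost when any 1 library other than control 2 was left out, with adjusted p from 0.0538 to 0.281. FABP1 (chromosome 2, 88422510 to 88427635), the liver fatty acid binding protein and the most abundant member, stood at 298 ± 27.9 RPKM in controls, 283 ± 38.2 at 2.5 µM and 282 ± 45.4 at 125 µM, and did not pass (-0.16 ± 0.12, adjusted p = 0.327).

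FABP1 and ACSL5 are shown by the 250 bases before their starts because they were the only members among the 29 found in the RefSeq promoter table (GRCh38.p14, another build than that of the files) whose window held AGGTCA, the core motif read by PPARA and related receptors. Capitals mark that motif, as TGACCT where it lies on the other strand, and in FABP1 also TATAAA. The FABP1 stretch is chr2:88128063-88128312 on the minus strand and the ACSL5 stretch chr10:112375018-112375267 on the plus strand, both written 5′ to 3′.
FABP1: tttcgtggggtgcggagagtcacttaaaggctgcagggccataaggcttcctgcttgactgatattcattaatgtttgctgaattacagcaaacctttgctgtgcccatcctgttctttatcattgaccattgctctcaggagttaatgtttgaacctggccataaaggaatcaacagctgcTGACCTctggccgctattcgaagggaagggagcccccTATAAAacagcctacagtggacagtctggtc
ACSL5: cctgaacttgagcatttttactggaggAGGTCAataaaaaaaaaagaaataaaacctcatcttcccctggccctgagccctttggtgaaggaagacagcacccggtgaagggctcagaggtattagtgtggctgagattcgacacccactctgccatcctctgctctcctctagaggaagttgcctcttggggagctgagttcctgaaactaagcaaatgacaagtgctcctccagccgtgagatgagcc
In FABP1 the motif began 68 bases before the start and again at base 12 after it, and TATAAA 31 bases before the start; in ACSL5 the motif began 223 bases before the start. Of these 2 genes, ACSL5 rose at 125 µM and FABP1 did not pass. Over all 27305 promoters of the table, 13.94% of windows of 300 bases held AGGTCA on either strand, against 2 of 29 members. The direct repeat of this motif with 1 base between the copies, known as DR1, was in 0 of 29 members and 0.02197% of all promoters, and DR1 with any base at the fourth place of each copy in 0 and 0.3076%. These forms overlap, since each DR1 holds AGGTCA or a variant of it. The 8 members not found in the promoter table were ACAA1, ACOX2, CRAT, DECR1, DECR2, EHHADH, ETFDH and VNN1. The known PPARA targets EHHADH and VNN1 were thus not searched. Where a gene had several windows only the first was counted, and counting any window gave the same members for AGGTCA and DR1.

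The carnitine shuttle was led by CPT1A. CPT1A (chromosome 11, 68522088 to 68611878) makes acylcarnitine at the outer mitochondrial membrane and is the rate-controlling step of long-chain oxidation. It had 49.4, 59.4 and 52.3 CPM in controls, 68.8, 49.6 and 75.5 CPM at 2.5 µM and 97.3, 123 and 95.1 CPM at 125 µM. The lowest library at 125 µM was above the highest of the other 6, and the level was 1.98-fold that of controls (log2 fold change 0.99 ± 0.14, adjusted p = 0.000115) and 1.68-fold that at 2.5 µM (adjusted p = 0.00295). At 2.5 µM the libraries overlapped the controls (0.24 ± 0.15, adjusted p = 0.308). CPT2 (chromosome 1, 53662101 to 53679869), which reverses the reaction at the inner membrane, had control values of 6.92, 9.50 and 7.44 CPM, against 8.99, 6.23 and 9.69 CPM at 2.5 µM and 11.4, 10.6 and 10.3 CPM at 125 µM. Its 125 µM libraries also stood above all others, but the difference did not pass (0.47 ± 0.20, adjusted p = 0.0701). Reads of CPT2 are few, and it overlaps C1orf123 in position. SLC25A20, the carnitine-acylcarnitine carrier between CPT1A and CPT2, stood at 12.9 ± 2.27 CPM in controls and 13.4 ± 0.518 at 125 µM (SD, n = 3; 0.063 ± 0.16, adjusted p = 0.793).

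**Figure D2:**
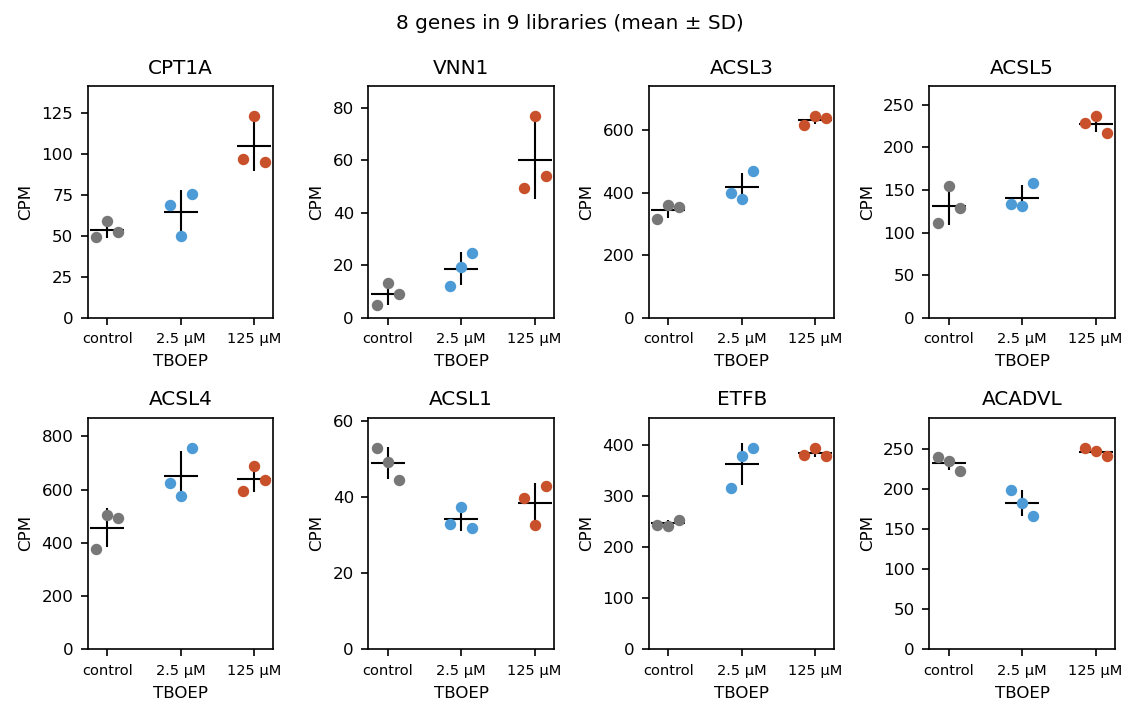
CPM of 8 genes in each library (points), with mean and SD (bars, n = 3), in controls, at 2.5 µM and at 125 µM TBOEP. CPT1A, VNN1, ACSL3 and ACSL5 at 125 µM lie above every other library, ACSL4 and ETFB are raised at both concentrations, ACSL1 is lowered at both, and ACADVL is low only in the 3 libraries at 2.5 µM.

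Among the 12 mitochondrial oxidation enzymes, ACADM, ACADS, ACAD9, ECI1 and DECR1 rose at 125 µM and ACADSB fell, while 6 did not pass. Acyl-CoA dehydrogenases take the first step of each cycle and differ in the chain length they accept. ACADS (chromosome 12, 121163538 to 121177811), for short chains, had 16.3, 16.2 and 17.4 CPM in controls, 24.4, 18.5 and 22.2 CPM at 2.5 µM and 24.8, 27.4 and 23.1 CPM at 125 µM. All 125 µM libraries except the third exceeded every library at 2.5 µM, and all 6 treated libraries exceeded the controls (0.62 ± 0.13, adjusted p = 0.00227). ACADM (chromosome 1, 76190036 to 76253260), for medium chains, had 53.4, 56.8 and 51.0 CPM in controls, 55.4, 50.3 and 58.6 CPM at 2.5 µM and 64.1, 72.0 and 75.6 CPM at 125 µM. It rose at 125 µM against control (0.38 ± 0.095, adjusted p = 0.00523) and against 2.5 µM (adjusted p = 0.0172), with no overlap in either, though it shares some ground with RABGGTB. The second of these calls was lost without 2.5 µM library 2 (adjusted p = 0.0959), 125 µM library 2 (adjusted p = 0.0906) or 125 µM library 3 (adjusted p = 0.0633).

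ACAD9 (chromosome 3, 128598439 to 128634910), a dehydrogenase that is also an assembly factor of respiratory complex I, had 12.5, 11.7 and 13.3 CPM with solvent alone, 18.1, 13.4 and 15.8 CPM with 2.5 µM and 18.4, 16.4 and 20.9 CPM with 125 µM TBOEP. It rose at 125 µM with no overlap with controls (0.54 ± 0.15, adjusted p = 0.0120). ACADSB (chromosome 10, 124768495 to 124817827), which acts on short branched chains from isoleucine, had 324, 382 and 327 CPM in controls, 384, 313 and 327 CPM at 2.5 µM and 258, 269.6 and 272 CPM at 125 µM. It was the only acyl-CoA dehydrogenase of the set called lower at 125 µM, against control (-0.37 ± 0.10, adjusted p = 0.00713) and against 2.5 µM (adjusted p = 0.0224); the latter call was lost without 2.5 µM library 1 or any 1 of the 125 µM libraries, at adjusted p from 0.0583 to 0.0922.

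ACADVL (chromosome 17, 7120444 to 7128592), the very-long-chain enzyme at the inner membrane, moved at the low concentration alone. It had 239, 235 and 222 CPM with solvent alone, 199, 183 and 166 CPM with 2.5 µM and 251, 247 and 241 CPM with 125 µM TBOEP. The 3 libraries at 2.5 µM lay below all 6 others, at log2 fold changes of -0.34 ± 0.083 against control (adjusted p = 0.0201) and, for 125 µM against 2.5 µM, 0.43 ± 0.083 (adjusted p = 0.00364). At 125 µM the libraries lay just above the controls without passing (0.085 ± 0.083, adjusted p = 0.441). The call against control was lost without control library 1 (adjusted p = 0.0924) or 2.5 µM library 3 (adjusted p = 0.0909), and ACADVL overlaps DLG4.

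ECI1 and DECR1 are the auxiliary enzymes that let unsaturated fatty acids enter the cycle. ECI1 (chromosome 16, 2289396 to 2302301), the enoyl-CoA isomerase, had 27.7, 28.3 and 27.2 CPM in controls, 36.9, 39.5 and 35.95 CPM at 2.5 µM and 42.5, 44.98 and 42.6 CPM at 125 µM. The 3 groups formed 3 separate ranges in the order of concentration, with log2 fold changes of 0.44 ± 0.10 at 2.5 µM (adjusted p = 0.0121) and 0.65 ± 0.095 at 125 µM (adjusted p = 0.000121); the step between the concentrations did not pass (0.21 ± 0.091, adjusted p = 0.145). The call at 2.5 µM was lost without control library 1 (adjusted p = 0.0614). DECR1, the 2,4-dienoyl-CoA reductase, had control values of 21.5, 20.4 and 19.0 CPM, against 26.5, 21.9 and 31.9 CPM at 2.5 µM and 32.5, 33.3 and 36.3 CPM at 125 µM. Its groups did not overlap either, and it rose at 125 µM (0.72 ± 0.13, adjusted p = 0.000634) but not at 2.5 µM (0.34 ± 0.13, adjusted p = 0.116). DECR1 overlaps NBN in position, and whether reads were shared between them was not tested.

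HADHA and HADHB encode the α and β subunits of the trifunctional protein, which runs the last 3 steps on long chains. Neither passed at any concentration. HADHA (chromosome 2, 26413504 to 26467594) had 392, 355 and 402 CPM in controls, 352, 363 and 351 CPM at 2.5 µM and 377, 372 and 389 CPM at 125 µM. HADHB (chromosome 2, 26466038 to 26513336) had 145, 151 and 159 CPM with solvent alone, 163, 162 and 149 CPM with 2.5 µM and 158, 167 and 186 CPM with 125 µM TBOEP. For HADHA the log2 fold change at 125 µM was -0.016 ± 0.079 (adjusted p = 0.891) and for HADHB 0.16 ± 0.086 (adjusted p = 0.155), and both overlapped the controls. Per length, HADHA exceeded HADHB 2.71-fold in controls, 2.38-fold at 2.5 µM and 2.37-fold at 125 µM. The genes lie head to head on chromosome 2 and overlap in the files, so reads near their starts could not be split between them with certainty.

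The sequence between them is shown because the promoter windows of both genes share it. It is chr2:26244633-26244882 on GRCh38.p14, from RefSeq, read on the minus strand 5′ to 3′ towards HADHA; the 194 bases in capitals are also part of the window of HADHB, which is read from the other strand, and 306 bases separate the starts.
HADHA: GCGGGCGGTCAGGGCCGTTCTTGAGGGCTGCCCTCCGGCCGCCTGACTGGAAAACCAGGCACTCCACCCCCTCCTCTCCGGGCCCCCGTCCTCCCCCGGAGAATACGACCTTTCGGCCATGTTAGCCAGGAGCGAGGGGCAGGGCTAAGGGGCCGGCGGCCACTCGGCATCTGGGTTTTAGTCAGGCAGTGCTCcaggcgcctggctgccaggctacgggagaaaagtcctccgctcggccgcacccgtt

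HADH, ECHS1 and ACAA2 complete the cycle for shorter chains. HADH (chromosome 4, 108910870 to 108956331), the hydroxyacyl-CoA dehydrogenase, had 21.1, 24.7 and 25.9 CPM with solvent alone, 38.1, 29.2 and 35.1 CPM with 2.5 µM and 28.3, 31.1 and 22.8 CPM with 125 µM TBOEP. It was raised at 2.5 µM (0.53 ± 0.14, adjusted p = 0.0286) and not at 125 µM (0.26 ± 0.14, adjusted p = 0.166), but the difference between the concentrations did not pass (-0.27 ± 0.14, adjusted p = 0.203). Without control library 1 (adjusted p = 0.170), control library 3 (adjusted p = 0.0504), 2.5 µM library 1 (adjusted p = 0.0952) or 2.5 µM library 3 (adjusted p = 0.0730) the call was lost. The hydratase ECHS1 stood at 73.9 ± 6.85 CPM in controls and 78.8 ± 3.60 at 125 µM, with overlap. The thiolase ACAA2 stood at 96.1 ± 4.19 and 83.6 ± 3.56 CPM, and its 125 µM libraries lay below all controls without passing the test (-0.20 ± 0.082, adjusted p = 0.0589); it passed on exon reads alone (adjusted p = 0.0215).

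Of the 3 electron transfer genes 1 rose, 1 fell and 1 did not pass at 125 µM. ETFA and ETFB encode the α and β chains of the flavoprotein that collects electrons from the acyl-CoA dehydrogenases, and ETFDH the oxidoreductase that passes them to ubiquinone. ETFB (chromosome 19, 51848423 to 51869672) had 244, 242 and 254 CPM with solvent alone, 315, 379 and 395 CPM with 2.5 µM and 381, 395 and 378 CPM with 125 µM TBOEP. All 6 treated libraries exceeded all controls, with a fold of 1.47 at 2.5 µM (log2 fold change 0.55 ± 0.090, adjusted p = 0.00635) and 1.56 at 125 µM (log2 fold change 0.64 ± 0.090, adjusted p = 9.19e-05). ETFA stood at 157 ± 3.22 CPM in controls, 165 ± 14.3 at 2.5 µM and 167 ± 13.5 at 125 µM, and did not pass (0.076 ± 0.089, adjusted p = 0.525). The chains form a dimer of 1 each. The RPKM of ETFB was 2.10 ± 0.0129 times that of ETFA in controls, 2.97 ± 0.381 times at 2.5 µM and 3.09 ± 0.342 times at 125 µM (SD, n = 3), with no overlap between controls and treated libraries.

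ETFDH (chromosome 4, 159593277 to 159630775) had 34.2, 22.4 and 27.7 CPM in controls, 23.1, 21.1 and 19.8 CPM at 2.5 µM and 18.4, 18.8 and 20.9 CPM at 125 µM. It was called lower at 125 µM (-0.58 ± 0.15, adjusted p = 0.00636), a call lost without control library 1 (adjusted p = 0.0636). Of its reads 28.0% lay in introns, and it overlaps C4orf46 and PPID. Exon reads alone, 20.7, 14.6 and 21.0 CPM in controls and 15.2, 14.5 and 19.5 at 125 µM, overlapped and did not pass (-0.33 ± 0.15, adjusted p = 0.104). Intron reads were 13.5, 7.72 and 6.67 CPM in controls and 3.28, 4.32 and 1.47 at 125 µM, so the groups separated in introns and not in exons.

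BDH1 was the only ketone body gene of the 37 and the member with the deepest fall. BDH1 (chromosome 3, 197236654 to 197300194) converts acetoacetate and hydroxybutyrate into each other in mitochondria. It had 237, 143 and 189 CPM in controls, 120.1, 96.0 and 59.0 CPM at 2.5 µM and 55.5, 49.5 and 52.1 CPM at 125 µM. The 3 groups did not overlap, and each step passed, at -1.01 ± 0.19 for 2.5 µM (adjusted p = 0.00891), -1.86 ± 0.20 for 125 µM (adjusted p = 1.5e-05) and -0.86 ± 0.20 between the concentrations (adjusted p = 0.0119). The last call was lost without 2.5 µM library 1 (adjusted p = 0.0634) or 125 µM library 2 (adjusted p = 0.0647). The level at 125 µM was 3.64-fold lower than in controls.

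Most BDH1 reads, 62.5%, lay in introns. Exon reads were 81.9, 46.3 and 69.0 CPM in controls, 42.5, 41.8 and 27.5 at 2.5 µM and 21.7, 22.1 and 23.1 at 125 µM. Intron reads were 155, 96.8 and 119.8 CPM in controls, 77.7, 54.2 and 31.5 at 2.5 µM and 33.7, 27.5 and 29.0 at 125 µM. Exons and introns thus fell together, and exon reads alone gave a log2 fold change of -1.65 ± 0.19, adjusted p = 1.51e-05. Genes rich in intron reads were lower at 125 µM as a class: of 1587 genes with over 50% of their reads in introns 28.9% were called lower, with a median log2 fold change of -0.39, against 18.01% and 0.043 in the 10101 genes with at most 25%. Of the 1213 genes between these limits, where CROT and ETFDH lie, 23.4% were called lower. The part of this shift in the values of BDH1, CROT and ETFDH was not tested.

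Of 8 further ketone body genes 5 were tested, and 1 rose and 1 fell at 125 µM, shares near those of all tested genes (20.3% and 19.9%). The gene that fell was BDH2, a cytosolic dehydrogenase first described as a hydroxybutyrate enzyme (-0.62 ± 0.17, adjusted p = 0.0108), which overlaps SLC9B2.

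ACOT2 and PDK4 act beside the pathway. ACOT2 (chromosome 14, 74034324 to 74042357), a mitochondrial thioesterase, had 35.3, 37.4 and 36.7 CPM in controls, 39.6, 34.2 and 38.0 CPM at 2.5 µM and 44.9, 42.9 and 44.8 CPM at 125 µM. Its rise at 125 µM (0.28 ± 0.10, adjusted p = 0.0311) was lost with DESeq2 (adjusted p = 0.119), with exon reads alone (adjusted p = 0.317) and without any 1 of control libraries 1 and 3 or the 125 µM libraries at adjusted p from 0.0598 to 0.113; the gene has a near-identical neighbour, ACOT1, and its value is uncertain. PDK4 (chromosome 7, 95212811 to 95225803), the kinase that shuts off pyruvate oxidation in fasting and a known PPARA target, was near the limit of detection at control values of 0.734, 0 and 0.257 CPM, against 0.0956, 0.0930 and 0.404 CPM at 2.5 µM and 0.607, 0.166 and 0 CPM at 125 µM. Over all libraries it had 18 reads, and no fold is given.

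In peroxisomes, ACOX2 and ACAA1 rose at 125 µM, CROT fell, and EHHADH, HSD17B4 and DECR2 did not pass. ACOX2 (chromosome 3, 58490863 to 58523046), the oxidase for bile acid intermediates and branched chains, had 18.9, 30.1 and 25.4 CPM with solvent alone, 38.6, 29.1 and 33.9 CPM with 2.5 µM and 37.3, 35.2 and 30.5 CPM with 125 µM TBOEP. Control library 1 was the lowest of all, and the rise at 125 µM (0.52 ± 0.16, adjusted p = 0.0179) was lost without it (adjusted p = 0.127), without 125 µM library 1 (adjusted p = 0.0747) and without 125 µM library 2 (adjusted p = 0.0632). ACAA1 (chromosome 3, 38144620 to 38178733), the peroxisomal thiolase, had control values of 78.4, 98.1 and 94.4 CPM, against 108, 90.2 and 103 CPM at 2.5 µM and 113, 117 and 102 CPM at 125 µM. The 125 µM libraries lay above the controls by a small margin (0.31 ± 0.10, adjusted p = 0.0290), and the call was lost without control library 1 (adjusted p = 0.158), 125 µM library 1 (adjusted p = 0.0794) or 125 µM library 2 (adjusted p = 0.119). In edgeR's test on exon reads alone ACAA1 did not pass (adjusted p = 0.0502). With limma on RPKM or on the quantile-normalised values neither ACOX2 nor ACAA1 was called.

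EHHADH (chromosome 3, 184908412 to 184999778), the peroxisomal bifunctional enzyme and a known PPARA target, had 26.9, 30.5 and 35.1 CPM with solvent alone, 35.5, 27.3 and 31.5 CPM with 2.5 µM and 25.1, 27.5 and 19.1 CPM with 125 µM TBOEP. Its groups overlapped and it did not pass (-0.30 ± 0.15, adjusted p = 0.122). HSD17B4 (chromosome 5, 118788138 to 118972894), the second bifunctional enzyme and the most abundant peroxisomal enzyme of the set, had 199, 209 and 212 CPM with solvent alone, 203, 175 and 164 CPM with 2.5 µM and 191, 159 and 198 CPM with 125 µM TBOEP. Every control exceeded every 125 µM library, but the difference did not pass (-0.18 ± 0.10, adjusted p = 0.164). DECR2, the peroxisomal dienoyl-CoA reductase, stood at 11.7 ± 2.62 CPM in controls and 13.5 ± 2.40 at 125 µM (0.16 ± 0.18, adjusted p = 0.497) and overlaps NME4.

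CROT (chromosome 7, 86974997 to 87029111) makes carnitine esters of chains shortened in peroxisomes so that they can leave for mitochondria. It had 27.5, 18.2 and 19.0 CPM in controls, 18.4, 16.2 and 12.1 CPM at 2.5 µM and 9.22, 9.63 and 12.1 CPM at 125 µM. The libraries at 125 µM lay below all controls, at 2.22-fold lower (-1.15 ± 0.19, adjusted p = 0.000308), and below those at 2.5 µM with the highest 125 µM library touching the lowest 2.5 µM library (12.11 and 12.12 CPM; -0.71 ± 0.19, adjusted p = 0.0239). The latter call was lost without 2.5 µM library 1 or 2 or 125 µM library 1 or 2, at adjusted p from 0.0671 to 0.112. Introns held 36.03% of its reads, and exon reads alone gave -1.25 ± 0.22, adjusted p = 0.000383. CRAT (chromosome 9, 131857089 to 131873468), which moves acetyl groups to and from carnitine in both organelles and overlaps PPP2R4, had 41.2, 43.5 and 46.7 CPM with solvent alone, 47.3, 38.4 and 41.6 CPM with 2.5 µM and 51.8, 51.0 and 64.2 CPM with 125 µM TBOEP. It was called higher at 125 µM (0.33 ± 0.11, adjusted p = 0.0317) where CROT was lower, but the call was lost without control library 1 (adjusted p = 0.129), control library 2 (adjusted p = 0.0534) or 125 µM library 3 (adjusted p = 0.112). CRAT was also called higher than at 2.5 µM (adjusted p = 0.0438), a call lost without control library 3 or any 1 treated library other than 2.5 µM library 1, at adjusted p from 0.0580 to 0.198. Both CRAT calls were also lost with DESeq2 and with limma on the quantile-normalised values. The call against 2.5 µM was lost with exon reads alone and with limma on RPKM as well.

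The CROT promoter is shown as that of the peroxisomal enzyme with the deepest fall. It is chr7:87345414-87345663 of GRCh38.p14 on the plus strand, from RefSeq, and capitals mark GGGCGG (the core of the GC box bound by SP1) and CCAAT (bound by NF-Y).
CROT: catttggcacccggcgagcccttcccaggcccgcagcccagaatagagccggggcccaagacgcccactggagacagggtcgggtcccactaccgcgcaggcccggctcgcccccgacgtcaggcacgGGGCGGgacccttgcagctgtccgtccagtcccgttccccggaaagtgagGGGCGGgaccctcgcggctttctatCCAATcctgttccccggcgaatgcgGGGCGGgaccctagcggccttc
GGGCGG began 122, 72 and 22 bases before the start and CCAAT 47 bases before it and at base 4 after it. GGGCGG, searched on both strands, was in 21 of 29 members (72.41%) and in 44.59% of all promoters, beside a median of 22 CG dinucleotides in the members' windows and 14 in all. CCAAT was in 5 of 29 (35.7% of all promoters), TATAAA in 3 (11.95%), TGATGNAAN, the composite read by ATF4, in 1, HSD17B4 (3.67%), and TCAAGGTCA, read by ESRRA, in 0 (0.3589%). The motifs other than DR1 and TGATGNAAN were added after values were seen.

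PEX11A, ECI2 and VNN1 close the set. PEX11A (chromosome 15, 90220995 to 90234014), which promotes peroxisome division, stood at 9.62 ± 1.495 CPM in controls, 13.1 ± 2.00 at 2.5 µM and 8.84 ± 0.704 at 125 µM and did not pass, also not between the concentrations (-0.48 ± 0.17, adjusted p = 0.0671). ECI2, an isomerase of both organelles, stood at 81.7 ± 8.96 CPM in controls and 91.0 ± 6.89 at 125 µM (0.18 ± 0.10, adjusted p = 0.190). VNN1 (chromosome 6, 133002729 to 133035188), a pantetheinase at the cell surface that recycles the vitamin part of coenzyme A and a known PPARA target in liver, had 4.72, 13.3 and 8.98 CPM in controls, 12.1, 19.2 and 24.6 CPM at 2.5 µM and 49.3, 76.7 and 54.0 CPM at 125 µM. The level at 125 µM was 7.28-fold that of controls (log2 fold change 2.86 ± 0.30, adjusted p = 9.87e-06) and 3.50-fold that at 2.5 µM (adjusted p = 0.000522), with no overlap in either. At 2.5 µM it was just short of the threshold (1.06 ± 0.33, adjusted p = 0.0511), with 2.5 µM library 1 (12.1 CPM) below control library 2 (13.3 CPM).

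Mitochondrial and peroxisomal enzymes were then compared as groups: 18 mitochondrial genes (carnitine shuttle, oxidation enzymes and electron transfer) and 6 peroxisomal enzymes. The mitochondrial genes BDH1, ACOT2 and PDK4 were not counted among the 18. At 125 µM, 7 of the 18 rose and 2 fell, with a median log2 fold change of 0.21, and 2 of the 6 rose and 1 fell, with a median of -0.010; of all tested genes 20.3% rose and 19.9% fell. At 2.5 µM, 3 of 18 rose and 1 fell (median 0.070) and 0 of 6 passed in either direction (median 0.030), against 6.02% of all tested genes higher and 5.03% lower. Between the concentrations, 3 of 18 were higher and 1 lower at 125 µM (median 0.15), and 0 of 6 were higher and 1 lower (median 0.021), against 7.48% and 7.44% of all tested genes. With ECI2 and CRAT counted as peroxisomal, the median of that side at 125 µM was 0.17. Its sign also turned with upper-quartile scaling (0.013), with limma on RPKM (0.065) and without control library 3 (0.064), 125 µM library 1 (0.028), 125 µM library 2 (0.056) or the third library of each group (0.046), so no direction is given for it. The medians describe the lists, and no difference between the organelles was tested.

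The summed level of the mitochondrial enzymes, in which long transcripts weigh more than short ones, was 10.3% higher at 125 µM than in controls. It was 1943 ± 9.16 CPM in controls, 2039 ± 24.0 at 2.5 µM and 2144 ± 31.3 at 125 µM (SD, n = 3). The 3 ranges did not overlap. ETFB alone accounted for 138 of the 201 CPM gained at 125 µM and CPT1A for 51.5, while ACADSB stood at 344 ± 33.0 CPM in controls and 267 ± 7.34 at 125 µM. Without ETFB the sum was 1697 ± 3.72 CPM in controls, 1676 ± 65.5 at 2.5 µM and 1759 ± 31.1 at 125 µM, and without ETFB and CPT1A 1643 ± 4.88, 1611 ± 64.4 and 1654 ± 35.3. The higher sum at 2.5 µM thus rested on ETFB. The 6 peroxisomal enzymes summed to 386 ± 20.4 CPM in controls, 374 ± 36.2 at 2.5 µM and 375 ± 13.1 at 125 µM, with overlap. Their share of both sums was 16.6% ± 0.690, 15.5% ± 1.10 and 14.9% ± 0.580.

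**Figure D3:**
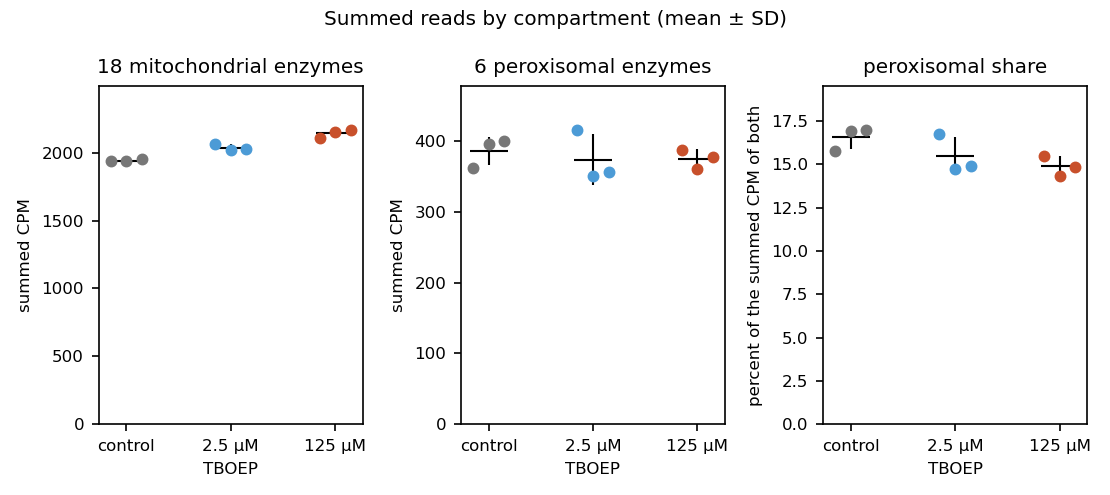
Summed CPM of the 18 mitochondrial enzymes (left) and the 6 peroxisomal enzymes (middle), and the peroxisomal part in percent of both sums (right), in each library (points) with mean and SD (bars, n = 3). The mitochondrial sum, which leaves out BDH1, is higher in each treated group than in controls without overlap. At 2.5 µM this rests on ETFB, and the peroxisomal sums overlap.

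Over the concentrations, the 23 genes called in at least 1 comparison fell into few patterns, and 13 were called in none. ACSL1, ACSL4, BDH1, ECI1 and ETFB were called in the same direction at both concentrations, and of these BDH1 alone also differed between them. CPT1A, VNN1, ACSL3, ACSL5, ACADM, ACADSB, CRAT and CROT, 8 in all, were called at 125 µM against control and against 2.5 µM and not at 2.5 µM. Of these VNN1 was just short of the threshold at 2.5 µM in edgeR's test (adjusted p = 0.0511) and was called there in 7 of 20 alternatives. ACAA1, ACAD9, ACADS, ACOT2, ACOX2, DECR1 and ETFDH were called at 125 µM against control and in neither other comparison. ACADVL, HADH and CD36 were called at 2.5 µM and not at 125 µM; ACADVL alone of these differed between the concentrations. The libraries of controls and 125 µM did not overlap in 24 of 36 genes, 17 higher and 7 lower, against 50.9% of all tested genes (25.6% higher and 25.2% lower). For 2.5 µM against control this was so in 10 genes higher and 3 lower, against 28.2% of all tested genes, and between the concentrations in 13 higher and 6 lower, against 32.8%.

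**Figure D4:**
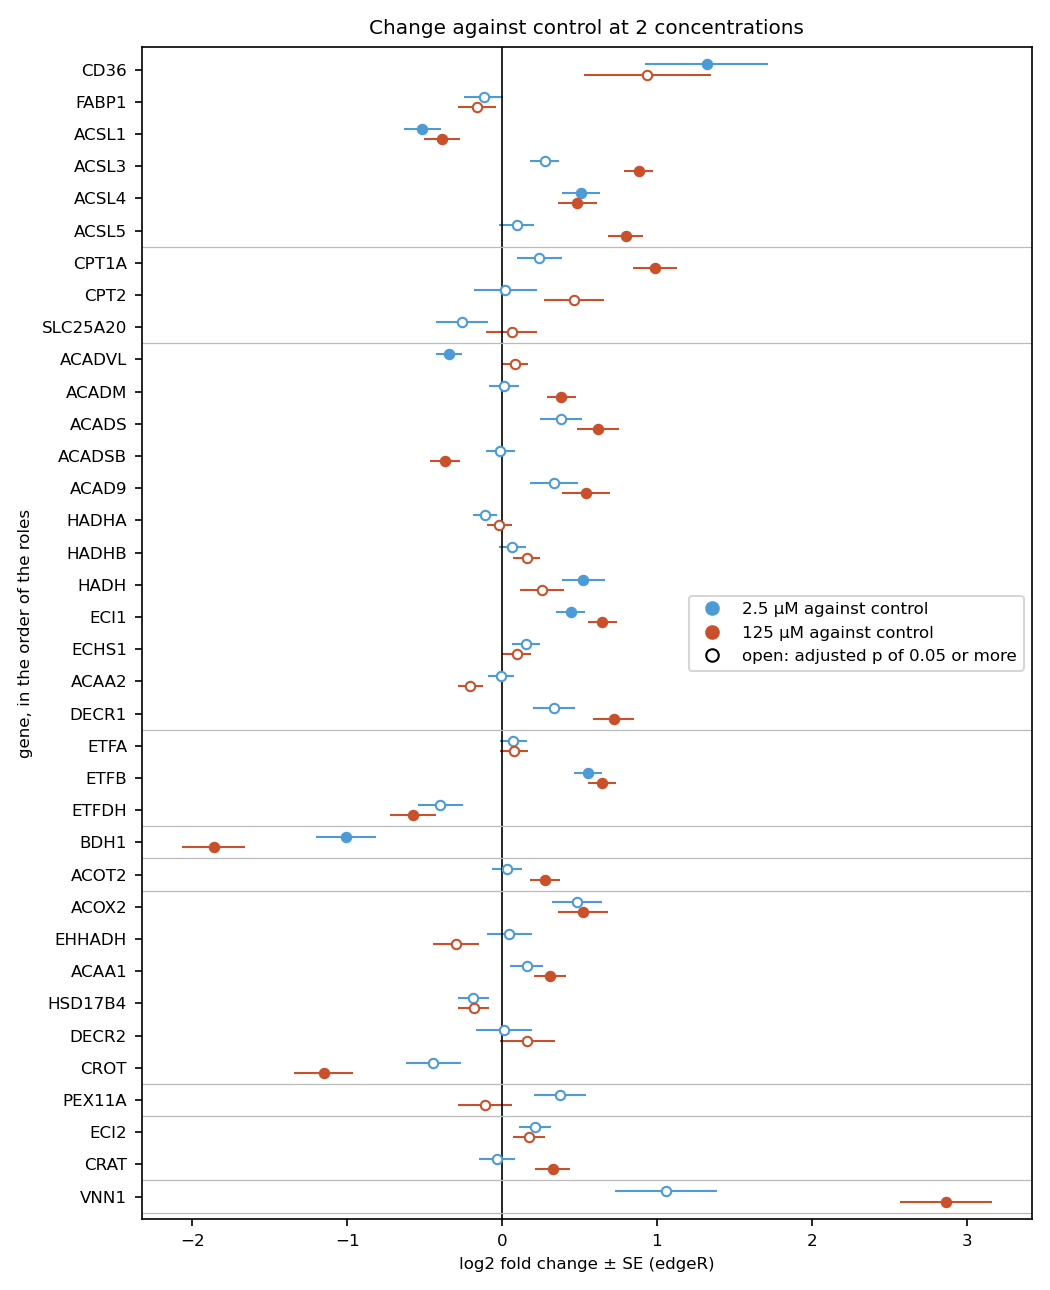
Log2 fold change against control at 2.5 µM (blue) and 125 µM (red) of the 36 tested genes, ordered by role, with SE (bars, edgeR); filled points passed an adjusted p of 0.05. VNN1 (2.86) and BDH1 (-1.86) are the extremes at 125 µM, and ACSL3, ACSL5 and CPT1A are filled at 125 µM alone.

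By deposited RPKM in controls, the 37 genes spanned from FABP1 at 298 ± 27.9 to PDK4 at 0.0684 ± 0.0766. HADHA was next at 91.0 ± 3.78, then ACSL4, ETFB (61.8 ± 2.41), ACADSB (48.9 ± 6.02) and ACADVL (44.7 ± 2.50). CPT1A, at 7.29 ± 0.875, was the 20th, with no separation from its neighbours ECI1 and BDH1, and CPT2 (2.06 ± 0.515) was the lowest of the 18 mitochondrial enzymes. HSD17B4 led the peroxisomal enzymes at 22.4 ± 1.23. Of the 36 pairs of neighbours in the order 25 overlapped in their control libraries, so most single ranks were not separated.

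Of 22 further genes of mitochondrial oxidation and its side routes, 18 were tested and 5 rose (27.8%) and 3 fell (16.7%) at 125 µM (median 0.11), near the 20.3% and 19.9% of all tested genes. The 4 genes of smallest adjusted p were the 3 that fell and 1 that rose. NUDT8, a coenzyme A hydrolase, rose (1.44 ± 0.29, adjusted p = 0.00136). MCEE, the epimerase of propionate breakdown, fell from 147 ± 32.4 to 43.2 ± 11.2 CPM (-1.82 ± 0.22, adjusted p = 3.49e-05), with 75.8% of its reads in introns. ACSF2, a mitochondrial medium-chain synthetase, fell from 130.3 ± 29.6 to 47.5 ± 4.23 CPM (-1.46 ± 0.21, adjusted p = 0.000101), and ACSM3, another of that kind, fell too (-0.77 ± 0.12, adjusted p = 0.000188); ACSM3 overlaps ERI2 and THUMPD1. At 2.5 µM 1 of the 18 rose and 0 fell.

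Of 18 further peroxisomal oxidation genes 16 were tested, and 4 rose (25.0%) and 3 fell (18.8%) at 125 µM (median 0.21), near the 20.3% and 19.9% of all tested genes. SLC25A17, a peroxisomal carrier of cofactors, rose (0.63 ± 0.16, adjusted p = 0.00657), while AMACR, the racemase of branched chains, fell (-0.92 ± 0.24, adjusted p = 0.00683) and overlaps another gene. ABCD3, a transporter of the peroxisomal membrane, fell as well (-0.29 ± 0.082, adjusted p = 0.0121). At 2.5 µM 0 of the 16 passed.

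Of 12 known PPARA targets listed outside the 37 genes 7 were tested, and at 125 µM 5 rose and 1 fell. Their median log2 fold change was 1.05, and of all tested genes 20.3% were higher and 19.9% lower. This list too was chosen with earlier results of these data known, so the counts describe it and do not test it. Among the 37 genes, the targets named above were uneven: VNN1 rose at 125 µM, EHHADH did not pass (-0.30 ± 0.15) and PDK4 was too scarce to be tested. CIDEC, which fuses lipid droplets, went from 1.26 ± 0.688 to 9.33 ± 1.40 CPM (3.02 ± 0.31, adjusted p = 9.69e-06), and PLIN2, the droplet coat protein, from 663 ± 36.7 to 1378 ± 15.2 (1.06 ± 0.088, adjusted p = 2.1e-06). ANGPTL4, a secreted lipase inhibitor, rose (0.98 ± 0.16, adjusted p = 0.000285) and overlaps RAB11B-AS1. CREB3L3, a fasting transcription factor of the liver, fell from 50.2 ± 7.70 to 26.3 ± 4.57 CPM (2.00-fold lower, adjusted p = 0.000140). It was also called lower at 2.5 µM, at a log2 fold change of -1.07. At that concentration 1 of the 7 rose and 1 fell, against 6.02% and 5.03% of all tested genes. CYP4A11, CYP4A22 and G0S2 were at 0 reads in every library and FGF21 had 3 reads in all.

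Of 16 regulators of the pathway, all tested, 5 rose (31.2%) and 3 fell (18.8%) at 125 µM (median -0.087), against 20.3% and 19.9% of all tested genes. PPARA itself stood at 164 ± 7.44 CPM in controls and 142 ± 10.5 at 125 µM and did not pass (-0.20 ± 0.084, adjusted p = 0.0658). The coactivators PPARGC1A and PPARGC1B, which drive mitochondrial oxidation genes, rose from 51.2 ± 1.71 to 84.1 ± 0.736 CPM (0.72 ± 0.084, adjusted p = 2.58e-05) and from 2.32 ± 0.442 to 5.98 ± 0.405 (1.41 ± 0.24, adjusted p = 0.000421). PPARD, a receptor related to PPARA, rose too (0.91 ± 0.13, adjusted p = 0.000104), and CREB3L3, named above, fell. At 2.5 µM 1 of the 16 rose and 1, CREB3L3, fell (6.25% each), near the 6.02% and 5.03% of all tested genes.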

How the data were processed

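Polyadenylated RNA of 9 HepG2 cultures was sequenced from stranded libraries as pairs of 50 bp reads, per the labels' protocols. CLC Genomics Workbench aligned the reads to hg19 and counted them per gene, according to the series' design text, with version and strand setting not given in the sources used here. The deposited read counts (total, unique, exon and intron) carry no normalisation, per the file headers. Deposited RPKM, per the file headers, divides exon reads by exon length and depth. The deposited quantile-normalised signal was made by the authors for Baggerly's test with an FDR of 5%, again from the design text.

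Total gene reads passed filterByExpr (12901 genes), were scaled by TMM and fitted with edgeR 4.0.16 in R 4.3.3, with all 9 libraries in 3 groups, two-sided contrasts and an adjusted p threshold of 0.05. Libraries of a group varied by a common 10.0% beyond counting error. Log2 fold changes, SE and CPM come from this fit and its scaling. Positions are whole genes on hg19, and 1 was added to deposited starts, after which 68.8% of 33372 features had the start GENCODE gives on GRCh37, against 1.16% before. The steps were tested on simulated counts for 125 µM against control (12901 genes). They found 38.8% of 67 genes set to change 1.5-fold, 76.1% of 67 at 2-fold and 92.4% of 66 at 4-fold. They also called 15 genes that had been left alone. Far fewer genes were set to change there than the 40.2% called at 125 µM, so the share found in these data can differ. Alternatives were DESeq2 1.42.0, limma 3.58.1 on log2(RPKM + 0.5) and on log2(signal + 1), upper-quartile scaling, other filters, exon or unique reads, glmTreat, fits of only the 2 groups compared, the replicate block and left-out libraries. The 37 genes and all lists were chosen with earlier results of these data known. All 37 are named, with per-library values for those past the threshold in any comparison and for key enzymes of each step; from each further list, up to 4 genes of smallest adjusted p past the threshold at 125 µM, and a few central ones, are named. A planned reading of protein ends was not run, and some genes of the further lists are not reported here. P-values measure the spread between separately seeded cultures of 1 line.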

Additional observations from a re-analysis of the deposited data

How the results depend on the processing

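Of the 20 members called at 125 µM against control, 10 stayed called under every alternative other than glmTreat, the test against a 1.5-fold change (ACADS, ACSL3, ACSL5, BDH1, CPT1A, CROT, DECR1, ECI1, ETFB and VNN1); at 2.5 µM this held for 0 of 8, and between the concentrations for 2 of 10 (ACSL3 and ACSL5). No log2 fold change of a called member turned sign. With glmTreat, 1085 genes, 1 gene and 122 genes were called at 125 µM, at 2.5 µM and between the concentrations; members higher were 3, 0 and 1, and members lower 2, 0 and 0. With limma on RPKM, 216 genes were called at 2.5 µM and 968 between the concentrations; members higher at 2.5 µM were 2, and members lower 2, 0 and 0 in the 3 comparisons. On that scale 66.5% of genes called at 125 µM were higher, against 50.5% with counts, the median of all genes was 0.085, and that of the mitochondrial enzymes 0.276. With limma on the quantile-normalised signal, 227 and 916 genes were called at 2.5 µM and between the concentrations; members higher were 2 and 4, and members lower 2, 0 and 0 in the 3 comparisons. A fit of only the 2 groups compared called 731 genes at 2.5 µM, against 1425. Without the third library of each group, chosen after seeing the data, 0 genes were called at 2.5 µM, with 0 members higher and 0 lower, and 923 between the concentrations; members higher at 125 µM were 9, and 4 against 2.5 µM. The medians at 2.5 µM were then 0.134 for mitochondrial and 0.149 for peroxisomal enzymes. With ECI2 and CRAT the peroxisomal median at 125 µM turned to 0.169. The cause of these shifts was not tested, other than that fits with fewer libraries have fewer samples.

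Leaving out 1 library at a time, genes called ranged from 3557 to 5351 at 125 µM, from 213 to 2050 at 2.5 µM and from 799 to 2230 between the concentrations. Members lower ranged from 3 to 5, from 1 to 4 and from 0 to 4, and members higher at 2.5 µM from 1 to 7. The lowest counts at 2.5 µM came without control library 1, and 468 genes were called without 2.5 µM library 3 and 707 without control library 3. The mitochondrial median at 125 µM ranged from 0.165 to 0.257; the peroxisomal median ranged from -0.075 to 0.064 at 125 µM, from -0.034 to 0.141 at 2.5 µM and from -0.055 (without 2.5 µM library 2) to 0.094 between the concentrations.

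Same-numbered libraries did not deviate together (correlations of -0.24 to 0.18 over 9 pairs, 4 above 0.1), so the numbers were not taken as pairs. With the replicate block, 5066, 1274 and 1771 genes were called and members higher and lower were 15 and 5 at 125 µM, 5 and 3 at 2.5 µM and 7 and 3 between the concentrations; CD36 lost its call at 2.5 µM (adjusted p = 0.0607) and VNN1 gained one.

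Depth limits CD36 (239 reads over all libraries), and PDK4 (18 reads) was too low to be tested.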

Other observations

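Of 13 tested peroxins, the proteins that build peroxisomes, 3 rose (23.1%) and 0 fell at 125 µM in edgeR's quasi-likelihood test, where 20.3% of all tested genes were higher and 19.9% lower. The share that rose lay near that of all genes; PEX10 and PEX2 were among the 3. PEX10, part of the receptor recycling machinery, went from 9.74 ± 2.07 to 17.3 ± 1.77 CPM (SD, n = 3; 0.88 ± 0.17, adjusted p = 0.00103) and overlaps RER1. PEX2 had a smaller log2 fold change (0.47 ± 0.14, adjusted p = 0.0141).

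Of 12 further genes of fatty acid transport and binding 9 were tested, and 2 rose and 2 fell at 125 µM (22.2% each), near the 20.3% and 19.9% of all tested genes. SLC27A4, a fatty acid transport protein, went from 17.1 ± 2.42 to 34.4 ± 0.763 CPM (1.02 ± 0.12, adjusted p = 2.55e-05), with no overlap between groups, and SLC27A2, the peroxisomal and surface form, rose with overlap (0.63 ± 0.20, adjusted p = 0.0220). ACSL6 fell (-1.08 ± 0.31, adjusted p = 0.0119), unlike ACSL3, ACSL4 and ACSL5, and so did the acyl-CoA binding protein DBI (-0.31 ± 0.10, adjusted p = 0.0196).

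Of the 3 other pyruvate dehydrogenase kinases, which gate carbohydrate against fat as fuel, 0 rose and 2 fell at 125 µM, against 20.3% and 19.9% of all tested genes. PDK1 went from 172 ± 11.9 to 134 ± 8.84 CPM (-0.36 ± 0.089, adjusted p = 0.00488) and PDK3 from 13.5 ± 5.20 to 7.42 ± 2.32 (-0.82 ± 0.26, adjusted p = 0.0196). PDK2 did not pass (0.46 ± 0.20, adjusted p = 0.0864). PDK1 overlaps another tested gene and is uncertain to that extent.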
